A study of Mus musculus with 11 samples.

Results

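Expression of 37 genes that mark macrophages, dendritic cells, mast cells and granulocytes was compared between germ-free and humanized mouse colon. The genes were taken by name from the 43346 genes of the deposited count table, with 10 macrophage, 6 dendritic cell, 3 eosinophil, 8 mast cell and 2 neutrophil genes and 8 genes shared by myeloid cells. All 37 were present, with Adgre1 listed under its older name Emr1 and matched by its identifier. RNA was from whole colonic tissue of male Swiss Webster mice, an outbred stock, at 8 to 10 weeks of age, with 5 germ-free mice that carried no microbiota and 6 humanized mice. The humanized mice were born and raised germ-free and received 300 μL of a stool suspension by gavage at 4 to 5 weeks of age, and the microbiota then had 4 to 5 weeks to settle. The stool came from 1 donor, all mice were male and singly housed, and a germ-free and a colonized mouse cannot share an isolator, so that isolator and colonization cannot be told apart. The comparison asks how human gut microbiota changed the myeloid gene expression of the colon.

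Macrophages of the colon lie under the epithelium and in the muscle layer, and those of the mucosa are renewed from blood monocytes under the growth factor receptor encoded by Csf1r. Dendritic cells carry antigen to lymph nodes and depend on the receptor encoded by Flt3, mast cells store proteases in granules and carry the high-affinity IgE receptor, and eosinophils and neutrophils are granulocytes. Many myeloid surface receptors signal through the adaptor chains encoded by Tyrobp (DAP12) and Fcer1g.

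Libraries held 49097005 to 64148538 counted reads in germ-free mice and 39125290 to 54219854 in humanized mice, and the 37 genes took between 0.0414% and 0.0687% of them. The low-expression filter kept 19863 genes, among them 32 of the 37. Markers of cells around the myeloid cells differed between the same mice. All 9 smooth muscle markers had lower expression in humanized mice (median log2-fold change, LFC, of −1.79), with a summed level of 280.1 to 857 RPKM (reads scaled to gene length and library size) in germ-free and 38.0 to 298 RPKM in humanized mice, and 5 of 9 passed without germ-free mouse 4. Of the fibroblast markers, 5 of 7 were lower (summed 152 to 280.5 RPKM against 19.9 to 134 RPKM), as were 6 of 6 markers of enteric neurons and glia (5.94 to 8.63 RPKM against 0.912 to 2.44 RPKM). None of 6 endothelial markers passed edgeR's exact test (1 with DESeq2, and 3, 1 or 4 without humanized mouse 3, 4 or 5, with a median log2-fold change of −0.95, 5 of 6 at an unadjusted p below 0.05, summed 16.03 to 18.8 RPKM against 2.05 to 14.5 RPKM). Of the T cell markers, 3 of 5 were higher (summed 3.61 to 4.97 RPKM against 6.13 to 12.3 RPKM). All 11 epithelial markers had an LFC above 0 and 3 of them were higher (median 0.27, summed 4515 to 6158 RPKM against 5181 to 7369 RPKM). No marker of these lists was at 0 in any mouse. None of 5 red blood cell markers passed with edgeR's exact test, the quasi-likelihood test or DESeq2, and none had an unadjusted p below 0.05 (median LFC 0.17). Humanized mouse 5 had the lowest level of all 11 mice for 9 of 9 smooth muscle, 7 of 7 fibroblast and 6 of 6 endothelial markers, and for none of the 5 T cell or 11 epithelial markers, and 4 of the 11 epithelial markers were highest in this mouse. The part of these differences in the results on myeloid genes was not tested.

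Some myeloid genes differed between the groups, and they did so in both directions. At FDR below 0.01, expression of 6 of the 32 tested genes differed, where 19.3% of all 19863 tested genes passed the same test. In humanized mice, Mertk and Siglecf had higher expression (2 of 32, against 9.20% of all genes), and Cd163, Mrc1, Zbtb46 and Siglech had lower expression (4 of 32, against 10.1%). Without humanized mouse 5 there were 4 higher genes, without germ-free mouse 2 or 5 there was 1, and without germ-free mouse 4 or humanized mouse 1 there was 1 lower gene. The share of myeloid genes that passed was thus close to that of all genes. The LFC of humanized over germ-free mice had a median of −0.34 over the 32 genes and of 0.01 over all tested genes, with 25 genes below 0 and 7 above, where 48.8% of all tested genes were below 0. The median of the members was −0.19 without germ-free mouse 1 and −0.57 with scaling to epithelial markers. The levels of the groups did not overlap for Mertk and Siglecf, higher in all humanized mice (2 of 32, against 8.67% of all genes), and for Cd163, Mrc1, Zbtb46 and Clec9a, lower in all of them (4 of 32, against 9.73%). RNA of whole tissue cannot tell fewer cells of a type from less RNA per cell. FDR values are from edgeR's exact test with Benjamini–Hochberg correction over all tested genes. The test sets each difference against the spread between these mice, which it takes for each gene as the same in both groups.

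**Figure D1:**
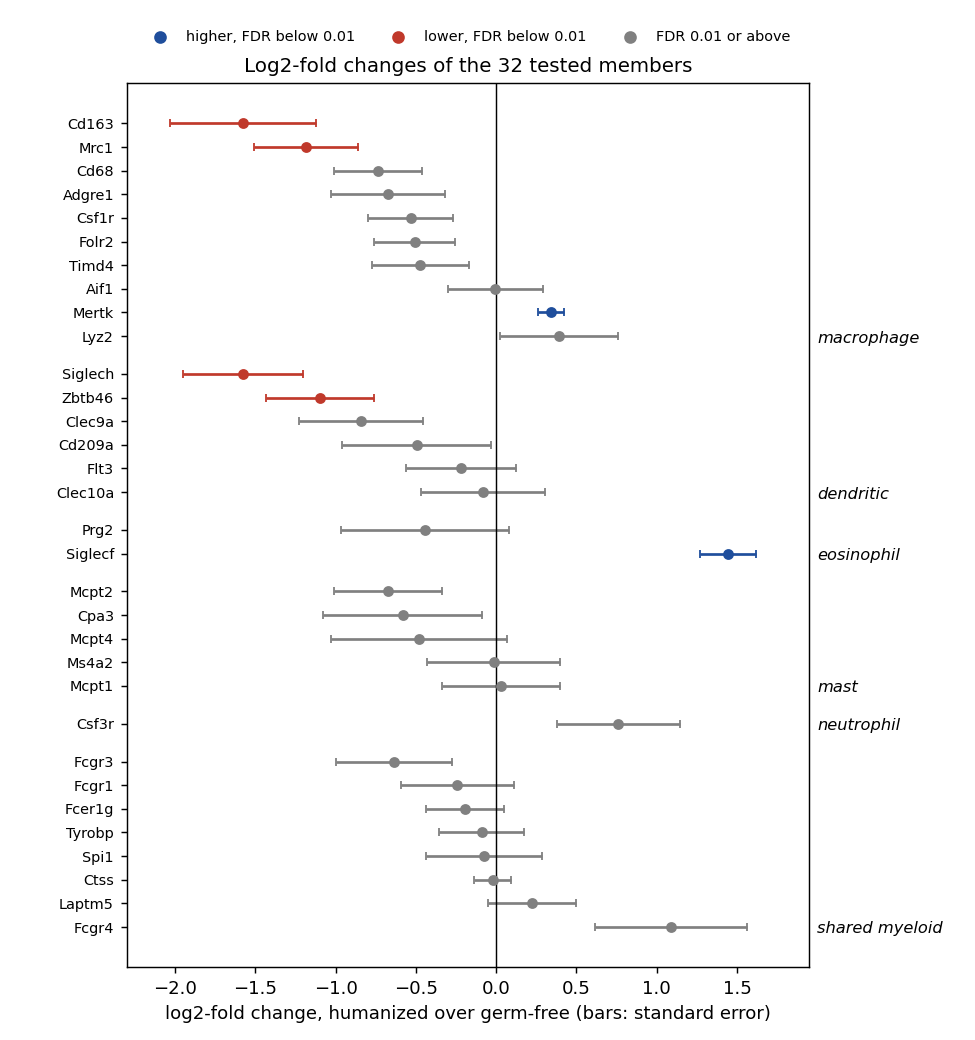
Log2-fold changes of humanized over germ-free mice for the 32 tested myeloid genes, grouped by lineage, with the LFC on the horizontal axis and bars for the standard error. Blue points mark Mertk and Siglecf (higher at FDR below 0.01), red points mark Cd163, Mrc1, Zbtb46 and Siglech (lower), and the 26 gray points did not pass.

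Macrophage genes differed in opposite directions. Of 10 tested genes, the scavenger receptor genes Cd163 and Mrc1 had lower expression in humanized mice, Mertk had higher expression, and 7 did not pass the test. Cd163 (ENSMUSG00000008845, chr6:124304651-124330527 on mm10) encodes the scavenger receptor for hemoglobin and haptoglobin complexes. Its levels were 1.19, 0.617, 0.868, 1.47 and 1.30 RPKM in the germ-free mice, and the 6 humanized mice had a lowest value of 0.0703, a median of 0.437 and a highest of 0.561 RPKM. All 6 humanized mice lay below the 5 germ-free mice, and humanized mice 5 and 1 were the lowest. Cd163 was 1.09 ± 0.342 RPKM (SD, n = 5) in germ-free and 0.364 ± 0.220 RPKM (SD, n = 6) in humanized mice (LFC −1.58, SE 0.45, FDR 0.00454). Mrc1 (ENSMUSG00000026712, chr2:14229392-14332057), the mannose receptor that takes up glycoproteins, had 3.59, 2.84, 3.01, 4.09 and 3.74 RPKM in germ-free mice. In humanized mice its lowest value was 0.459, its median 1.65 and its highest 2.28 RPKM. The groups again did not overlap, and the same humanized mice 5 and 1 were lowest (LFC −1.18, SE 0.32, FDR 0.00249).

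Mertk (ENSMUSG00000014361, chr2:128698956-128802894) encodes the receptor tyrosine kinase through which macrophages engulf dying cells. Its levels were 15.9, 13.2, 13.8, 15.3 and 13.4 RPKM in germ-free mice, and 16.3, 17.9 and 20.5 RPKM as the lowest, median and highest of the humanized mice. Every humanized mouse was above every germ-free mouse, and humanized mouse 5, which was lowest for the 9 other macrophage genes, was the highest for Mertk. The epithelial markers Epcam, Cdh1, Cldn7 and Lgals4 were highest in this mouse as well, and the part of epithelial RNA in the Mertk result was not tested. The difference was small, with 14.3 ± 1.21 RPKM (SD, n = 5) against 18.2 ± 1.85 RPKM (SD, n = 6), and an LFC of 0.34 (SE 0.08, FDR 0.00134). With counts scaled to library totals the LFC was 0.15 (FDR 0.200), and with counts scaled to 11 epithelial markers it was 0.06 (FDR 0.743), while these scalings shifted the median LFC of all genes by −0.19 and −0.27. Without germ-free mouse 2 or 5 the FDR was 0.0139 or 0.0102.

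The macrophage genes that did not pass included the most widely used markers. Adgre1, which encodes the F4/80 antigen, had 4.04, 3.17, 4.11, 4.34 and 4.02 RPKM in germ-free mice and a lowest, median and highest value of 0.558, 2.46 and 4.12 RPKM in humanized mice (LFC −0.67, SE 0.35, FDR 0.160). Humanized mice 2 and 3 lay within the germ-free range, at 3.49 and 4.12 RPKM, and humanized mouse 5 was far below it. Csf1r was 7.66 ± 0.646 RPKM (SD, n = 5) in germ-free and 5.30 ± 2.199 RPKM (SD, n = 6) in humanized mice (LFC −0.53, SE 0.26, FDR 0.127). The endosomal protein gene Cd68 was at 4.65 ± 0.762 against 2.79 ± 1.01 RPKM (SD, n = 5 and 6, LFC −0.74, SE 0.27), with an FDR of 0.0429, which passes only a threshold of 0.05. Lyz2, which encodes the lysozyme of macrophages and neutrophils, was the most abundant gene of this lineage. It ranged from 61.1 to 83.5 RPKM in germ-free mice and from 24.4 to 169 RPKM in humanized mice, with mice 2 and 3 highest and mouse 5 lowest (LFC 0.39, SE 0.37, FDR 0.470). Aif1, an actin-bundling protein gene, had an LFC of −0.00468 (SE 0.29, FDR 0.999), Folr2, a folate receptor gene of tissue-resident macrophages, of −0.51 (FDR 0.163), and Timd4, a receptor for phosphatidylserine on long-lived resident macrophages, of −0.47 (FDR 0.290). Reads of Csf1r and Folr2 may be shared with genes on the opposite strand, since 16.8% and 45.5% of their stretches of 101 bases, the read length, also lie in Hmgxb3 and Gm10602.

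The calls of the lower macrophage genes rested on the test and on single mice. With edgeR's quasi-likelihood test the FDR was 0.0219 for Cd163 and 0.0172 for Mrc1. For Cd163 it was 0.0149, 0.0219 or 0.0173 without germ-free mouse 1, 4 or 5, and 0.0124 or 0.0129 without humanized mouse 1 or 2. For Mrc1 it was 0.0127 without germ-free mouse 4 and 0.0101 without humanized mouse 1. The LFC stayed below 0 without each mouse in turn, from −1.74 to −1.36 for Cd163 and from −1.34 to −0.995 for Mrc1.

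The sequence before the start of the genes was read to show where the myeloid transcription factor PU.1, the product of the member gene Spi1, could find its core motif. The letters GAGGAA, or TTCCTC on the other strand, were in 14 of 31 promoters of the 29 members with an entry in the RefSeq table (build GRCm38.p6, 250 bases before to 50 bases after the start), or 45.2%, against 28.3% of all 32851 promoters. The promoters of Mrc1, Cd163, Mertk and the eosinophil gene Siglecf are given because these genes differed in opposite directions, in gene direction with the motif in capitals.
Mrc1, chr2:14229164-14229463, plus strand: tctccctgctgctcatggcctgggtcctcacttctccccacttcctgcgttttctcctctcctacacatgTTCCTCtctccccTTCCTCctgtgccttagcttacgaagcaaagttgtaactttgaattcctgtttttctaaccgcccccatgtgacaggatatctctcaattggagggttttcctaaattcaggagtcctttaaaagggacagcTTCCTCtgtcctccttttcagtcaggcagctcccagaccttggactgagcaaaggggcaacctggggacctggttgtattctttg
Cd163, chr6:124304401-124304700, plus strand: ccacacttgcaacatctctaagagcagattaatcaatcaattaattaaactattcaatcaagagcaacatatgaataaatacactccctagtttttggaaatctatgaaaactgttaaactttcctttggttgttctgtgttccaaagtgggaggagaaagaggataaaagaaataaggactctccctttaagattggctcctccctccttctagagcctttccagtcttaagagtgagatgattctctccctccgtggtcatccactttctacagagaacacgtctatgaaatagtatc
Mertk, chr2:128698665-128698964, plus strand: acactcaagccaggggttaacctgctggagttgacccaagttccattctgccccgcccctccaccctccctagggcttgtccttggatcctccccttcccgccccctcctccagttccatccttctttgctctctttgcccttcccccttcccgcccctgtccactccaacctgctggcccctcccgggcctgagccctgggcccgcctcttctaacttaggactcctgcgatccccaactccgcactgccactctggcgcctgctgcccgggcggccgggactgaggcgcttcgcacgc
Siglecf, chr7:43351091-43351390, plus strand: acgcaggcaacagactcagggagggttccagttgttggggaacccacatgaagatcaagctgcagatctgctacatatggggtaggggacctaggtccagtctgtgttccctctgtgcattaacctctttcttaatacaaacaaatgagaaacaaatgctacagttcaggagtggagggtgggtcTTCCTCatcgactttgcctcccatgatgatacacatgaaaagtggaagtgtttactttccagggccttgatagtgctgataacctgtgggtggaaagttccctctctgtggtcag
Mrc1 held the motif 3 times and Siglecf 1 time, in both on the other strand, and these letters were not in the windows of Cd163 and Mertk. For Cd163 and Mertk, unlike Mrc1 and Siglecf, the bases after the RefSeq start were not found in a GENCODE transcript of the gene, so that the start of their windows is less certain. A match of letters is a description of the sequence, and the motif was present in a gene that was lower and in a gene that was higher in humanized mice.

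All 6 dendritic cell genes had an LFC below 0, and 2 of them, Siglech and Zbtb46, had lower expression by the test. The LFC of Clec10a turned positive without germ-free mouse 4 (0.14), humanized mouse 1 (0.0623) or 5 (0.0978), or both germ-free mouse 4 and humanized mouse 5 (0.32). Siglech (ENSMUSG00000051504, chr7:55768178-55778925), a receptor of plasmacytoid dendritic cells, had 0.553, 0.164, 0.404, 0.412 and 0.300 RPKM in germ-free mice. Humanized mice had a lowest value of 0.0322, a median of 0.131 and a highest of 0.175 RPKM (LFC −1.58, SE 0.37, FDR 4.43e-04). Germ-free mouse 2 fell among the humanized mice, so the groups overlapped, and the counts were low, from 4 to 118 reads per mouse. The call held without each mouse in turn. Zbtb46 (ENSMUSG00000027583, chr2:181387762-181459426), a transcription factor of classical dendritic cells that endothelial cells also express, had 0.410, 0.424, 0.436, 0.493 and 0.429 RPKM in germ-free mice. Its humanized values were 0.0594 at the lowest, 0.216 at the median and 0.325 RPKM at the highest. The germ-free mice lay close together and above all 6 humanized mice (LFC −1.10, SE 0.34, FDR 0.00959). This FDR was just under the threshold, and leaving out any germ-free mouse gave 0.0211, 0.0220, 0.0255, 0.0332 and 0.0236 for mice 1 to 5. It was 0.0310, 0.0138 or 0.0269 without humanized mouse 1, 2 or 6, and 0.0290 with the quasi-likelihood test. With upper-quartile normalization it was 0.0109, and with no filter on low counts 0.0139. Endothelial markers had a median LFC of −0.95, with humanized mouse 5 lowest for all 6, and their part in the Zbtb46 result was not tested.

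Clec9a, a receptor for dead cells on cross-presenting dendritic cells, was also lower in each humanized mouse than in each germ-free mouse, but missed the threshold. Its germ-free values were 0.804, 0.748, 0.857, 0.705 and 0.669 RPKM, and the humanized values had a lowest of 0.0575, a median of 0.445 and a highest of 0.615 RPKM (LFC −0.84, SE 0.39, FDR 0.104). Humanized mouse 5 had 9 reads of this gene. Flt3, the growth factor receptor of the lineage, was at 0.452 ± 0.0274 against 0.388 ± 0.210 RPKM (SD, n = 5 and 6, LFC −0.22, FDR 0.706). The C-type lectin genes Cd209a and Clec10a had LFC values of −0.50 (SE 0.47, FDR 0.489) and −0.08 (SE 0.39, FDR 0.910).

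**Figure D2:**
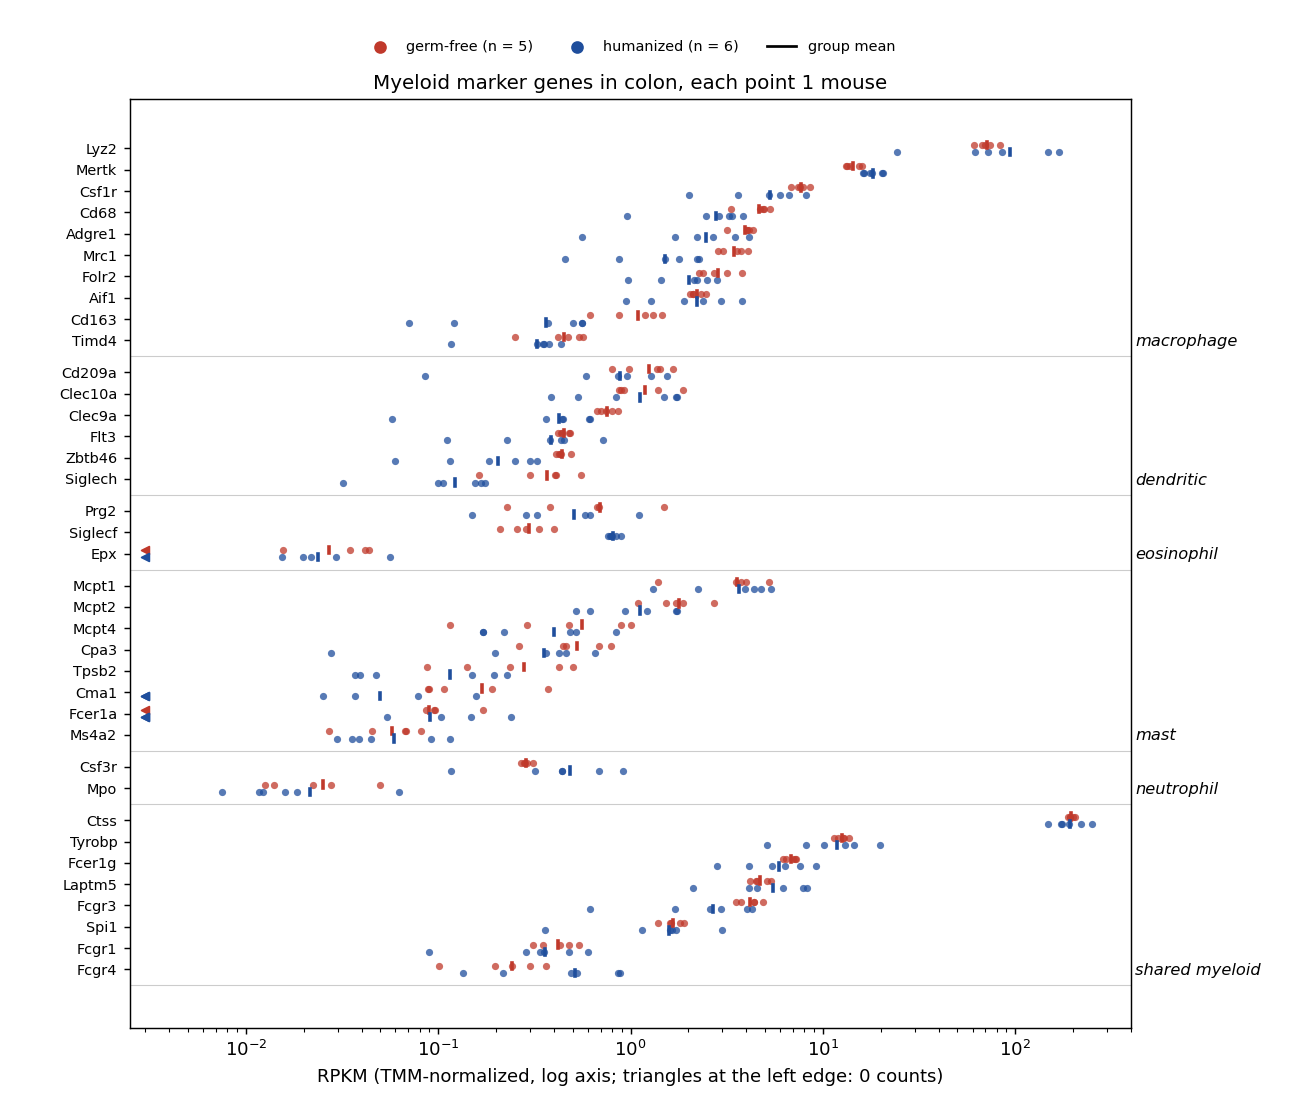
Level of each of the 37 genes in each mouse, in TMM-normalized RPKM on a log axis, with germ-free mice in red, humanized mice in blue, group means as short lines and mice with 0 counts as triangles at the left edge. Siglecf and Mertk show all blue points to the right of the red ones, Cd163, Mrc1, Zbtb46 and Clec9a show all blue points to the left, and most other genes show blue points spread to both sides.

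Among the granulocyte and mast cell genes, Siglecf alone passed the test. Siglecf (ENSMUSG00000039013, chr7:43351341-43359531) encodes a sialic acid receptor of eosinophils. Its levels were 0.210, 0.336, 0.257, 0.402 and 0.287 RPKM in germ-free mice and 0.761, 0.796 and 0.892 RPKM as the lowest, median and highest of humanized mice. All 6 humanized mice lay above all germ-free mice and close to each other, humanized mouse 5 included at 0.800 RPKM. This mouse was the lowest of all mice for 25 of 32 members, and the part of epithelial RNA in the Siglecf result was not tested. The difference was the clearest of all members, from 0.298 ± 0.0736 RPKM (SD, n = 5) to 0.812 ± 0.0479 RPKM (SD, n = 6), with an LFC of 1.44 (SE 0.17, FDR 1.08e-10), from 37 to 118 reads per mouse. The other eosinophil members did not follow it. Prg2, which encodes the granule major basic protein, was at 0.692 ± 0.489 against 0.510 ± 0.342 RPKM (SD, n = 5 and 6, LFC −0.44, SE 0.52, FDR 0.603), and without germ-free mouse 1 its LFC was 0.0473. Epx, the eosinophil peroxidase, had at most 7 reads in a mouse and was filtered out. Ccr3, the eotaxin receptor from a list of further granulocyte genes, was also filtered out, with 18, 14, 8, 28 and 20 reads in germ-free mice and 0 to 4 reads in humanized mice. Tested without the filter, Ccr3 had an LFC of −2.35 (FDR 2.32e-04), opposite in sign to that of Siglecf.

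No mast cell gene passed edgeR's exact test among the 5 tested, none had an unadjusted p below 0.05, and none passed with the quasi-likelihood test or DESeq2. The mucosal mast cell protease gene Mcpt1 was the most abundant, with 5.25, 3.53, 3.78, 4.00 and 1.39 RPKM in germ-free mice and a lowest, median and highest of 1.31, 4.15 and 5.37 RPKM in humanized mice. Both groups covered nearly the same range (LFC 0.03, SE 0.37, FDR 0.974). The protease genes Mcpt2, Mcpt4 and Cpa3 had LFC values of −0.67 (FDR 0.147), −0.48 (FDR 0.578) and −0.58 (FDR 0.438), and Ms4a2, the beta chain of the IgE receptor, had −0.01 (SE 0.41). The chymase gene Cma1, the tryptase gene Tpsb2 and Fcer1a, the alpha chain of the IgE receptor, were filtered out at 0 to 28, 2 to 38 and 0 to 12 reads per mouse. Without the filter their LFC values were −1.69 (FDR 0.0999), −1.28 (FDR 0.151) and 0.03, and none passed. Another tryptase gene, Tpsab1, had 10, 0, 13, 16 and 35 reads in germ-free mice and 0 reads in all 6 humanized mice, where a count of 0 allows up to 3 reads per mouse. Without the filter its FDR was 1.94e-05, and since germ-free mouse 2 had 0 reads as well, the groups overlapped.

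Of the neutrophil genes, Csf3r, the receptor of granulocyte colony-stimulating factor, was 0.268, 0.312, 0.289, 0.280 and 0.281 RPKM in germ-free mice. In humanized mice it was 0.117 at the lowest, 0.441 at the median and 0.912 RPKM at the highest (LFC 0.76, SE 0.38, FDR 0.150). Humanized mouse 5 lay below all germ-free mice, and the other 5 humanized mice lay above them. Without humanized mouse 5 the LFC was 0.97 and Csf3r passed the test (FDR 0.00401). Mpo, the myeloperoxidase of neutrophil granules, had 1 to 10 reads per mouse and was filtered out, and 6.34% of its 101-base stretches also lie in Gm11505.

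The genes shared by myeloid cells showed no difference that passed the test in any of 8 cases, with 1 of 8 at an unadjusted p below 0.05 and a median LFC of −0.08. None passed with the quasi-likelihood test or DESeq2 either. Fcgr4, an activating receptor for IgG on monocytes and neutrophils, came closest. Its germ-free values were 0.101, 0.198, 0.300, 0.242 and 0.364 RPKM, and the humanized values had a lowest of 0.134, a median of 0.508 and a highest of 0.879 RPKM (LFC 1.09, SE 0.47, FDR 0.0795). Humanized mice 5 and 1 lay within the germ-free range and the other 4 above it, and without mouse 5 the LFC was 1.29 (FDR 0.00987). The other activating IgG receptor genes Fcgr1 and Fcgr3 had LFC values of −0.24 (FDR 0.694) and −0.64 (FDR 0.202), below 0 where Fcgr4 was above. The adaptor genes Tyrobp and Fcer1g were at −0.09 (SE 0.26, FDR 0.857) and −0.20 (SE 0.24, FDR 0.642), and Laptm5, a lysosomal membrane protein gene of leukocytes, was at 0.22 (SE 0.27, FDR 0.617). Spi1, which encodes PU.1, had an LFC of −0.08 (SE 0.36, FDR 0.912).

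Ctss, the protease that trims the invariant chain of MHC class II, was the most abundant of the 37 genes. It had 194, 199, 187, 205 and 193 RPKM in germ-free mice, and a lowest, median and highest of 148, 182 and 252 RPKM in humanized mice (LFC −0.02, SE 0.11, FDR 0.923). Like Mertk, Ctss was highest of all 11 mice in humanized mouse 5, where most other members were at their lowest and 4 of 11 epithelial markers at their highest, whose part in this pattern was not tested.

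The humanized mice differed among themselves far more than the germ-free mice did. The coefficient of variation of the 32 genes had a median of 15.7% in germ-free and 48.6% in humanized mice, against 10.4% and 16.5% for all tested genes. Humanized mouse 5 was the lowest of the 11 mice for 25 of 32 myeloid genes, against 22.1% of all tested genes, and the lowest of the humanized mice for 28 of 32, against 28.2%. By lineage, it was the lowest of all mice for 9 of 10 macrophage, 5 of 6 dendritic cell, 3 of 5 mast cell and 6 of 8 shared genes. It was also the lowest for 4 of 4 genes of all leukocytes, whose summed level ran from 12.2 to 15.6 RPKM in germ-free and from 8.54 to 28.0 RPKM in humanized mice. Germ-free mouse 4 was the highest of all mice for 9 of 32 genes, against 11.4% of all tested genes, and for 9 of 9 smooth muscle markers. This mouse also stood apart for 6 markers of mesothelium and fat, with a summed level of 25.4 RPKM against 0.109 to 1.53 RPKM in the other germ-free and 0.396 to 4.30 RPKM in the humanized mice. In germ-free mouse 4 the fat cell genes Cfd and Adipoq had 1023 and 333 reads, where the other germ-free mice had 1 to 34 and 0 to 4 reads. Wt1, Adipoq and Plin1 were at 0 reads in at least 1 other mouse and were filtered out. None of the 3 tested genes of this list passed edgeR's exact test, the quasi-likelihood test or DESeq2, and none had an unadjusted p below 0.05. Cd163 and Mrc1 were highest in the same mouse and lost their calls without it, at an LFC of −1.45 (FDR 0.0219) and −1.12 (FDR 0.0127). With all mice the LFC values were −1.58 and −1.18, and the part of mesothelium and fat in these results was not tested. Without both of these mice, Mertk and Siglecf passed as higher and Cd163, Mrc1 and Siglech as lower, and Zbtb46 had an FDR of 0.0115.

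**Figure D3:**
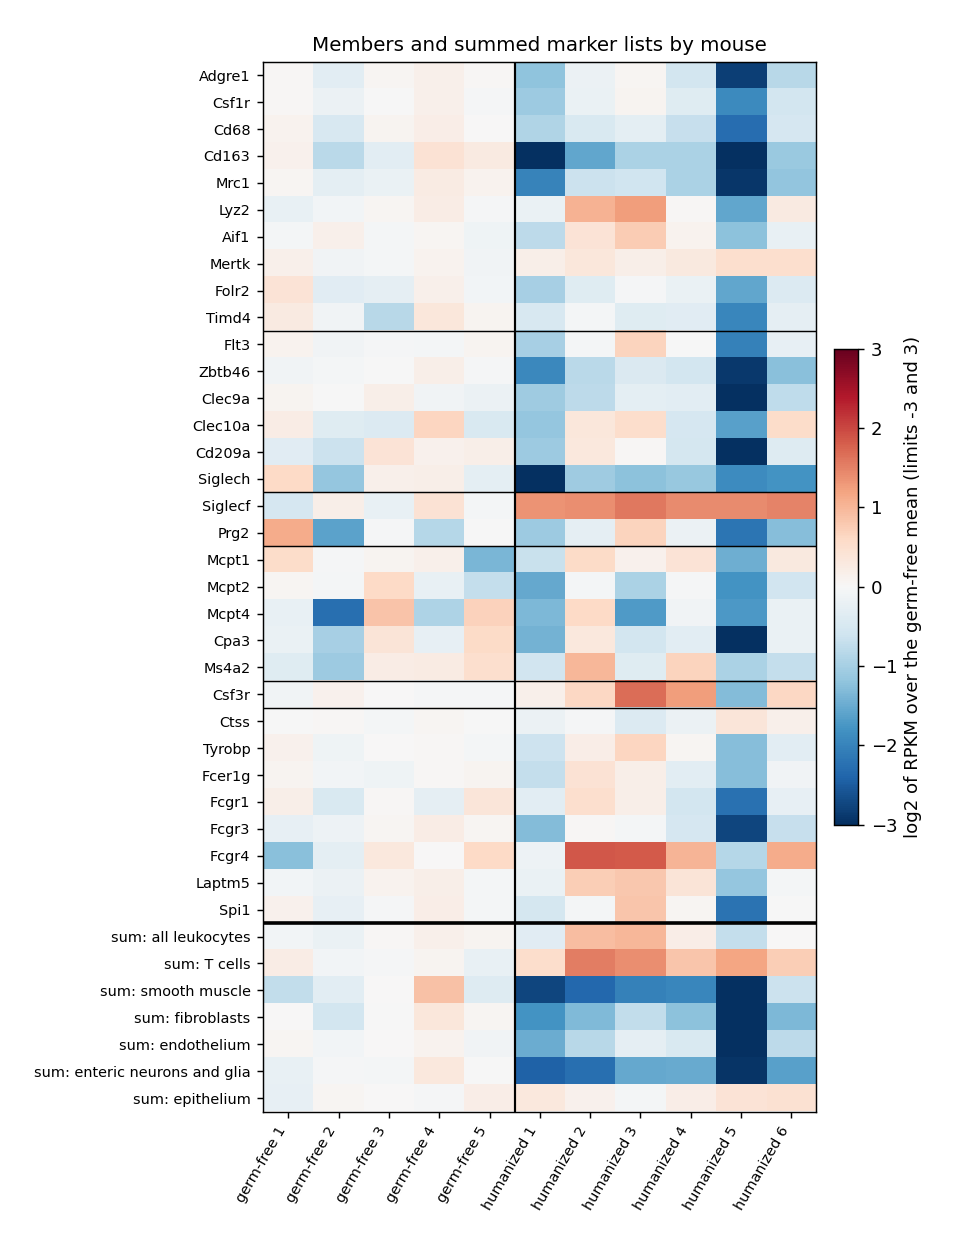
Log2 of the RPKM of each tested myeloid gene over its germ-free mean, 1 column per mouse and 1 row per gene, with red above and blue below the germ-free mean. The rows under the thick line give the same for the summed RPKM of marker lists of other cells, and the column of humanized mouse 5 is blue for nearly all genes except Mertk, Siglecf and Ctss and is red for T cells and epithelium.

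Relative to Csf1r in the same mouse, some myeloid genes had a higher and some a lower level in humanized mice. This ratio sets each gene against a macrophage gene of the same library, and was chosen after the values of the mice were seen. Of the 31 other tested members, the ratio of 6 did not overlap between the groups and was higher in humanized mice (Lyz2, Laptm5, Tyrobp, Csf3r, Fcgr4 and Siglecf), against 8.86% of all tested genes. The ratio of 2 did not overlap and was lower (Mrc1 and Zbtb46), against 3.47%. The ratio to Csf1r was also higher, with no overlap, for 5 of 5 T cell markers, 4 of 4 genes of all leukocytes and 3 of 6 B and plasma cell markers, and Laptm5 is itself a gene of all leukocytes. It was lower for 5 of 6 markers of enteric neurons and glia, 3 of 7 of fibroblasts, 2 of 6 of the endothelium and 1 of 9 of smooth muscle. The part of these cells in the ratios of the myeloid genes was not tested. The log2 ratio of the group means had a median of 0.24 over the members and 0.83 over all tested genes.

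The ratio of Tyrobp to Csf1r was 1.74, 1.68, 1.67, 1.502 and 1.62 in germ-free mice and 1.93, 2.22 and 2.54 as the lowest, median and highest of humanized mice. Humanized mouse 5, which had the lowest Tyrobp level, had the highest ratio, so that its Tyrobp and Csf1r levels were low together. Laptm5 had ratios of 0.571 to 0.670 in germ-free and 0.860 to 1.18 in humanized mice, and Lyz2 had 7.74 to 9.92 against 12.03 to 22.0. The ratio of Mrc1 was 0.455, 0.418, 0.395, 0.478 and 0.504 in germ-free mice and 0.227, 0.283 and 0.332 as the lowest, median and highest of humanized mice. Mrc1 was thus lower beside Csf1r as well as in its own level, and the same was seen for Zbtb46 with 0.0520 to 0.0624 against 0.0293 to 0.0498. For Cd163 the ratios of 0.0907 to 0.175 and 0.0335 to 0.0954 overlapped (exact permutation test, two-sided p = 0.0130, adjusted over all genes 0.0504), and for Adgre1 the ratios of 0.466 to 0.540 and 0.275 to 0.521 overlapped too. The counts depended on the gene in the denominator, as did those of all tested genes. Against Adgre1, 7 members were higher and 0 lower, with 7.72% and 1.82% of all genes. Against Tyrobp they were 1 and 6 (2.01% and 6.38%), and against Laptm5 1 and 8 (1.16% and 8.38%). Against Ptprc, the gene of the leukocyte antigen CD45, they were 0 and 14 (0.876% and 10.5%).

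**Figure D4:**
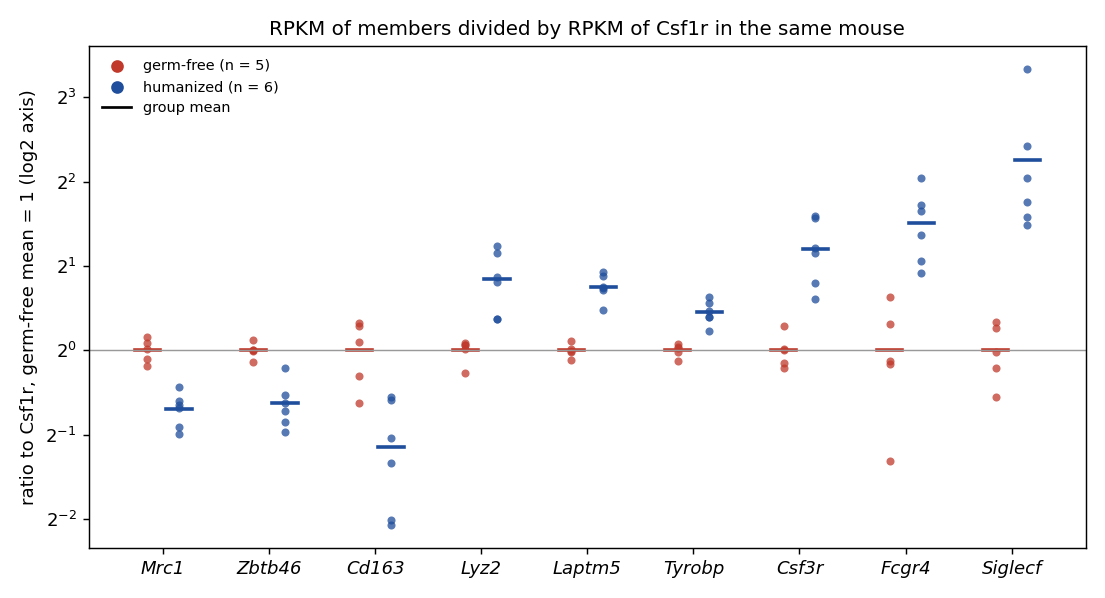
Ratio of the RPKM of 9 genes to the RPKM of Csf1r in the same mouse, divided by the germ-free mean and drawn on a log2 axis, with 1 point per mouse and lines at the group means. Mrc1 and Zbtb46 lie lower and Lyz2, Laptm5, Tyrobp, Csf3r, Fcgr4 and Siglecf higher in all 6 humanized mice than in all 5 germ-free mice, while the groups overlap for Cd163.

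Further genes of the same pathways, taken from 6 lists of 94 genes, passed the test at about the share of all genes. Among the 72 that were tested, 7 were higher in humanized mice (against 9.20% of all tested genes) and 8 were lower (against 10.1%), with a median LFC of −0.25. Without humanized mouse 3, 13 were lower. Among growth factors and their receptors, 1 of 13 tested genes passed, and 3 or 2 without humanized mouse 3 or 5. Il33, the alarmin that activates mast cells and is made by stromal and epithelial cells, was lower at 2.75 ± 0.874 against 0.818 ± 0.399 RPKM (SD, n = 5 and 6, LFC −1.75, SE 0.34, FDR 1.60e-05). The Csf1r ligands Csf1 and Il34 had LFC values of −0.94 (SE 0.36, FDR 0.0388) and −0.48 (SE 0.16, FDR 0.0480), and did not pass. Flt3l, the ligand of Flt3, was at −0.18 (FDR 0.521), and the mast cell growth factor gene Kitl and its receptor gene Kit were at −0.12 (FDR 0.372) and −0.29 (FDR 0.0426). Kit had a mean of 28.6 RPKM in germ-free mice, where Mcpt1, the most abundant mast cell gene, had 3.59 RPKM. The part of other cells in the Kit level was not tested. Csf3, the ligand of Csf3r, had 0 to 10 reads per mouse and was filtered out.

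Among 16 tested myeloid transcription factor genes, 2 were higher and 2 lower, against 9.20% and 10.1% of all tested genes. There was 1 higher without germ-free mouse 3, 4 or 5, and there were 4 lower without humanized mouse 2 or 3. Irf4, which acts in dendritic cells and in plasma cells, had an LFC of 1.76 (SE 0.44, FDR 7.56e-04), and Irf8, a factor of dendritic cells, monocytes and B cells, had 0.25 (SE 0.05, FDR 0.00198). The summed B and plasma cell markers ran from 12.5 to 60.5 RPKM in germ-free and from 82.6 to 568.3 RPKM in humanized mice, with 2 of 6 genes higher (1 of 6 in most fits that left out a mouse), and their part in the Irf4 result was not tested. Tcf4, a factor of plasmacytoid dendritic cells that many other cells use, was lower (LFC −0.58, SE 0.13, FDR 2.88e-04), as was Nr1h3, the liver X receptor alpha gene (LFC −0.55, SE 0.13, FDR 9.54e-04).

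Among 18 further monocyte and macrophage genes, 1 was higher and 3 were lower, against 9.20% and 10.1% of all tested genes. There was 1 lower without germ-free mouse 1, 3, 4 or 5 or humanized mouse 1, 2 or 6, and there were 2 higher without humanized mouse 5. Cd14, the co-receptor for bacterial lipopolysaccharide, was higher in each humanized mouse, at 64.3 ± 7.83 RPKM (SD, n = 6) against 39.6 ± 3.44 RPKM (SD, n = 5) in germ-free mice (LFC 0.70, SE 0.09, FDR 3.59e-10). It was highest of all 11 mice in humanized mouse 5, at 72.8 RPKM, where 15 of these 18 genes were at their lowest. In this mouse 4 of 11 epithelial markers were at their highest, and their part in the Cd14 result was not tested. Axl, which shares the ligand Gas6 with Mertk, was lower with an LFC of −1.18 (SE 0.36, FDR 0.00683), where Mertk was higher, and Gas6 itself was at 0.10 (SE 0.13, FDR 0.637). Axl was lowest in humanized mouse 5, at 1.21 RPKM, as were all 7 fibroblast markers (median LFC −1.50). The part of fibroblasts in the Axl result was not tested. Lyve1, a hyaluronan receptor of lymphatic vessels and some resident macrophages, and Trem2, a lipid receptor that signals through DAP12, were lower with LFC values of −1.01 (FDR 7.60e-04) and −0.83 (FDR 0.00511). Of 8 further dendritic cell genes, Cadm1, an adhesion molecule of cross-presenting dendritic cells and of other cells, was lower (LFC −1.57, SE 0.21, FDR 1.18e-09), and 7 did not pass. Without humanized mouse 3 or 5, 2 of the 8 were lower.

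Of 21 further mast cell and granulocyte genes, 7 could be tested. Hpgds, the synthase of prostaglandin D2, was lower (LFC −0.73, SE 0.16, FDR 3.81e-04), and 2 genes were lower without germ-free mouse 3. Ltf, the lactoferrin of neutrophil granules, was higher (LFC 2.85, SE 0.49, FDR 7.94e-12), from 0 to 8 reads in germ-free mice and 16 to 28 reads in humanized mice. The other tested neutrophil genes of this list did not pass, with LFC values of −0.29 for Prtn3 (FDR 0.780), −0.13 for Retnlg (FDR 0.868) and 0.14 for Cxcr2 (FDR 0.795). The neutrophil genes Ngp, Ly6g, Ctsg, Camp and Mmp8 were filtered out at no more than 11 reads in a mouse, and Elane was listed at 0. Ngp had 0 reads in total in germ-free and 5 in humanized mice, Ly6g 0 and 2, and Ctsg 2 and 6, while Camp had 32 and 10 and Mmp8 6 and 5. None of the 5 passed when tested without the filter, with FDR values of 0.442, 0.874, 0.784, 0.403 and 1. Among 10 genes that signal below Fc receptors and DAP12, 3 were higher and none lower, against 9.20% and 10.1% of all tested genes. Leaving out humanized mouse 5 gave 5 higher genes, against 1876 of all 19698 genes then tested. The kinase genes Lyn and Syk had LFC values of 0.78 (SE 0.14, FDR 7.11e-06) and 0.50 (SE 0.10, FDR 8.94e-05), and for both the groups did not overlap. Both kinase genes thus had higher expression while the adaptor genes Tyrobp and Fcer1g did not pass the test, and B cells and other cells also express Lyn and Syk.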

How the data were processed

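RNA of colonic tissue from 5 germ-free and 6 humanized male mice was sequenced as 101 bp paired-end reads from TruSeq RNA v2 libraries. The authors aligned reads to mm10 with TopHat2 2.1.0 and Bowtie2 2.2.3, counted reads per gene with featureCounts (Subread 1.4.6-p5), and deposited a single table of raw, unscaled counts for 43346 genes. The strand setting is not given in the sources used here. The myeloid genes and the lists were chosen with earlier results of these data known.

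All 11 columns were assigned by their labels. The classic pipeline of edgeR 4.0.16 (R 4.3.3) was used, with filterByExpr (minimum count 10, minimum total 15, large n 10, minimum proportion 0.7), TMM normalization, estimateDisp and exactTest, with Benjamini–Hochberg correction over 19863 genes and a threshold of FDR below 0.01. Standard errors were taken from a quasi-likelihood fit to these counts. RPKM used TMM-scaled libraries and the gene lengths of the deposited table. Exact permutation tests enumerated 462 splits on log2(CPM + 0.5) or on ratios. The text names all 37 members, the called genes with the 2 highest and 2 lowest LFC of each list, and the ligands or receptors of members. Tpsab1, Ccr3, Ear2, Il5ra, Prtn3, Retnlg, Cxcr2, Ngp, Ly6g, Ctsg, Camp, Mmp8 and Elane were named after their values were seen. A called list gene is not reported by name. Alternatives were the quasi-likelihood test, DESeq2 1.42.0, other normalizations, filters and thresholds, leaving out mice, and a replicate block. The exact test was checked on simulated data.

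Mice of the same group differed by a mean chi-square per gene of 21.2 to 123, so none was counted as a repeat of another. Labels and methods name no batch. Genes that share read-length sequence were found with GENCODE transcripts of GRCm38.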

Additional observations from a re-analysis of the deposited data

Results flagged for a closer look

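In 3 of 74 groups of mice, 1 mouse stood apart from the others of its group for a member gene by Dixon's criterion, and chance alone gives about 1 in 20. Adgre1 was at 3.17 RPKM in germ-free mouse 2, where the nearest germ-free mouse had 4.02 RPKM. Timd4 was at 0.116 RPKM in humanized mouse 5, where the nearest humanized mouse had 0.326 RPKM. Mpo was at 0.0629 RPKM in humanized mouse 2, where the nearest had 0.0184 RPKM, from 8 and 3 reads. No cause was tested.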

How the results depend on the processing

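Siglecf passed the test between the groups under all its alternatives, its ratio to Ptprc overlapped between the groups, and each called member kept its direction wherever it was tested. Members higher in humanized mice numbered 1 in place of 2 with an absolute LFC above 1, total-count scaling, scaling to epithelial markers and the replicate block, and 1 to 4 when single mice were left out. Members lower numbered 1 in place of 4 with the quasi-likelihood test, 0 with the replicate block, and 1 to 4 when single mice were left out. Members whose groups did not overlap numbered 5 to 7 without single mice, and those with a higher or lower ratio to Csf1r 6 to 7 and 2 to 3. Against Adgre1, Tyrobp, Laptm5 and Ptprc, denominators added after seeing the data, 7, 1, 1 and 0 were higher (7.72%, 2.01%, 1.16% and 0.876% of all tested genes) and 0, 6, 8 and 14 lower (1.82%, 6.38%, 8.38% and 10.5%). Pathway genes higher numbered 3 with an absolute LFC above 1, 4 with epithelial scaling, 2 with the replicate block and 6 to 10 without single mice. Pathway genes lower numbered 16 at FDR below 0.05, 4 with an absolute LFC above 1, 16 with total-count scaling, 15 with epithelial scaling, 2 with the replicate block and 6 to 13 without single mice. Calls over all genes moved under the same settings. Higher calls were 1827 in the main comparison, 405 with an absolute LFC above 1, 773 with total-count scaling, and 501 with epithelial scaling and with the block. Lower calls were 1999, and 2905 at FDR below 0.05, 1273 with an absolute LFC above 1, 1298 with the quasi-likelihood test, 3609 with total-count scaling, 3354 with epithelial scaling and 501 with the block. The replicate numbers do not pair the mice, since the correlations of same-numbered mice ran from −0.13 to 0.09 and 1 of 5 correlated best with its own number. The cause of these changes was not tested.

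Of the members that were not called, 8 changed sign, and Prg2, with an LFC of −0.44, did so without germ-free mouse 1. Ms4a2 was at 0.0025 with DESeq2 and 0.0473 with the replicate block. Mcpt1 was at −0.000441 with upper-quartile, −0.13 with total-count and −0.24 with epithelial scaling and at −0.0719 with the block. Without germ-free mouse 4 and humanized mouse 5 together, an alternative chosen after seeing the data, Aif1 was at 0.17, Clec10a at 0.32, Tyrobp at 0.0726 and Spi1 at 0.19. Without single mice the LFC ran from −0.23 to 0.15 for Aif1, −0.26 to 0.14 for Clec10a, −0.11 to 0.0424 for Ctss, −0.17 to 0.21 for Mcpt1, −0.18 to 0.10 for Ms4a2, −0.84 to 0.0473 for Prg2, −0.36 to 0.13 for Spi1 and −0.30 to 0.0631 for Tyrobp. A filter of 10 counts in every mouse tested 24 members, and Siglech was not among them. Depth limits Epx, Mpo and Fcer1a, which had at most 7, 10 and 12 reads in a mouse.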
